A study of Homo sapiens with 12 samples.

Results

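PCDH9 lies on chromosome 13 from 66302834 to 67229818 (hg38), on the minus strand, and the data described here are the H3K9me3 peaks that fall in it. H3K9me3 is trimethylation of lysine 9 on histone H3. A peak was taken as a member when the authors' gene column named PCDH9 or when the peak overlapped the gene body by at least 1 bp. This gave 156 peaks of the 65170 in the list of SMARCA3 knockout (KO) 293T cells and 130 of the 46898 in the list of wild-type (WT) 293T cells, or 286 of 112068 in both lists. The gene was chosen by its high number of peaks in these same lists, so its peak counts, widths and folds are descriptions and carry no test. The 293T line comes from human embryonic kidney cells, SMARCA3 is now named HLTF, and the 2 groups differed in the knockout of this gene. The labels do not say whether the KO cells were 1 clone. The labels list 3 ChIP and 3 input libraries for KO and as many for WT, from biological triplicates. They enter the libraries as transcriptomic and the molecule as total RNA, although the protocol and the series type describe ChIP-seq, and the data are taken as ChIP-seq here. However, each genotype is present as 1 peak list with no column per library. No spread between replicates could be measured, no p-value was computed, the read depth is unknown, and a peak list does not allow a check of the cell type or of the knockout.

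PCDH9 encodes protocadherin-9, a transmembrane adhesion protein of the delta group of non-clustered protocadherins, which is best known from neurons of the brain. H3K9me3 is laid down by methyltransferases such as SUV39H1 and SETDB1, is bound by HP1 proteins and marks silent heterochromatin. HLTF is a DNA translocase with a RING finger, a domain of ubiquitin ligases, and the title of the series calls it a ubiquitin ligase of histone H3 that regulates H3K9me3.

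The promoters are shown first because the surroundings of the gene's own start differ from those of the antisense starts inside it. No peak of either list overlapped the RefSeq promoter window of PCDH9 (GRCh38.p14, chr13:67230287-67230586, minus strand, 250 bases before to 50 after the start). The nearest peak lay 14142 bp away in KO and 14069 bp away in WT. The share of all promoter windows that overlap a peak is not given here, so the lack of a peak is a description only. Antisense genes inside PCDH9 also have windows in that table, and the windows of PCDH9-AS3 (chr13:66977139-66977438, plus strand) and PCDH9-AS4 (chr13:66990636-66990935, plus strand) are given for comparison. Capitals mark CG dinucleotides, the sites of DNA methylation.

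PCDH9: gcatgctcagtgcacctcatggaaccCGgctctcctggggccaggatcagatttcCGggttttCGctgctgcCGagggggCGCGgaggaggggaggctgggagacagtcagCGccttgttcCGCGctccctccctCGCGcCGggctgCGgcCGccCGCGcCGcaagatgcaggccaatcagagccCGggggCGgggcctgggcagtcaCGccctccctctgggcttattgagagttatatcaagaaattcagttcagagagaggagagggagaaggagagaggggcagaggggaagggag
PCDH9-AS3: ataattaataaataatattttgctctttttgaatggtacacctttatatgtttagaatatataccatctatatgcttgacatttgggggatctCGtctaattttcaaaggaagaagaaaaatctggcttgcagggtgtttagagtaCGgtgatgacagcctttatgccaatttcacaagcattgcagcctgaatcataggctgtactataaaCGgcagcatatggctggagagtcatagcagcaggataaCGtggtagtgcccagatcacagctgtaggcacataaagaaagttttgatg
PCDH9-AS4: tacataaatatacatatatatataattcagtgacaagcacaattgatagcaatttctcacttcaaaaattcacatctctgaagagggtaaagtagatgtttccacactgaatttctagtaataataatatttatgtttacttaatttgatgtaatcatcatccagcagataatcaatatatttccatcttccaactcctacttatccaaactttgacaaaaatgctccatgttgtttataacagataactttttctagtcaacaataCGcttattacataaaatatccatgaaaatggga

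The PCDH9 window held 20 CG dinucleotides and was 65.7% G or C, as against 4 and 38.3% for PCDH9-AS3 and 1 and 28.0% for PCDH9-AS4. Of 35116 RefSeq promoter windows, 41.2% held as many CG dinucleotides as PCDH9 or more. Searched on both strands, the PCDH9 window had 2 matches to GGGCGG, found in 45% of all windows, and 1 match to CCAAT, found in 34.6%. It had no match to TATAAA, found in 11.5%, whereas the PCDH9-AS3 and PCDH9-AS4 windows had 2 and 1. None of the 3 windows was inside a peak, but those of PCDH9-AS3 and PCDH9-AS4 had peaks much closer. No window was available for PCDH9-AS2, the antisense gene with the most members. For PCDH9-AS4 the nearest peak was 1414 bp away in KO and 635 bp away in WT, for PCDH9-AS3 it was 1409 bp and 1393 bp away, and for PCDH9-AS1, whose window is not shown, 998 bp and 1053 bp.

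A second start of PCDH9 was marked in both genotypes. The authors' annotation uses 2 transcripts of the gene, the long ENST00000377865 over the whole body and ENST00000614931, which starts 326 kb further in, at 66903605. That inner start lay inside a KO peak of 3292 bp (66901232 to 66904523) with a fold enrichment of 7.88 and inside a WT peak of 3320 bp (66901259 to 66904578) with a fold of 7.87. The fold is the authors' value per peak, read here as ChIP signal over background, and each lay above 99.5% (KO) and 99.6% (WT) of the folds in its own list. The outer start, by contrast, sat in a stretch without peaks of 31.9 kb in KO and 34.4 kb in WT. Without the share of all annotated starts that lie inside a peak, neither start can be called unusual.

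KO cells had more peaks and more covered bases in PCDH9 than WT cells, by a smaller margin than over all chromosomes. Peaks covered 144716 bases of the body in KO and 130062 bases in WT, or 15.6% in KO and 14% in WT. The ratio of KO to WT was 1.20 for peaks and 1.11 for bases at PCDH9, as against 1.16 and 1.14 over chromosome 13 and 1.39 and 1.59 over all chromosomes. Against its own chromosome PCDH9 was thus slightly higher by peaks and slightly lower by bases. Of 298 protein-coding genes of at least 500 kb with a peak, 87.6% had more covered bases in KO, as PCDH9 did. The direction at PCDH9 depended on how the lists were cut. When peaks with a fold under 3.69, the median of the pooled lists, were left out, 45 KO and 59 WT peaks remained and KO minus WT was -6982 bases. With the KO list cut by q-value to the length of the WT list there were 92 and 130 peaks, and KO minus WT was -13232 bases. The KO excess stayed when the lists were cut at the pooled median q-value (14765 bases) and when peaks within 1 kb were merged (20287 bases).

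**Figure D1:**
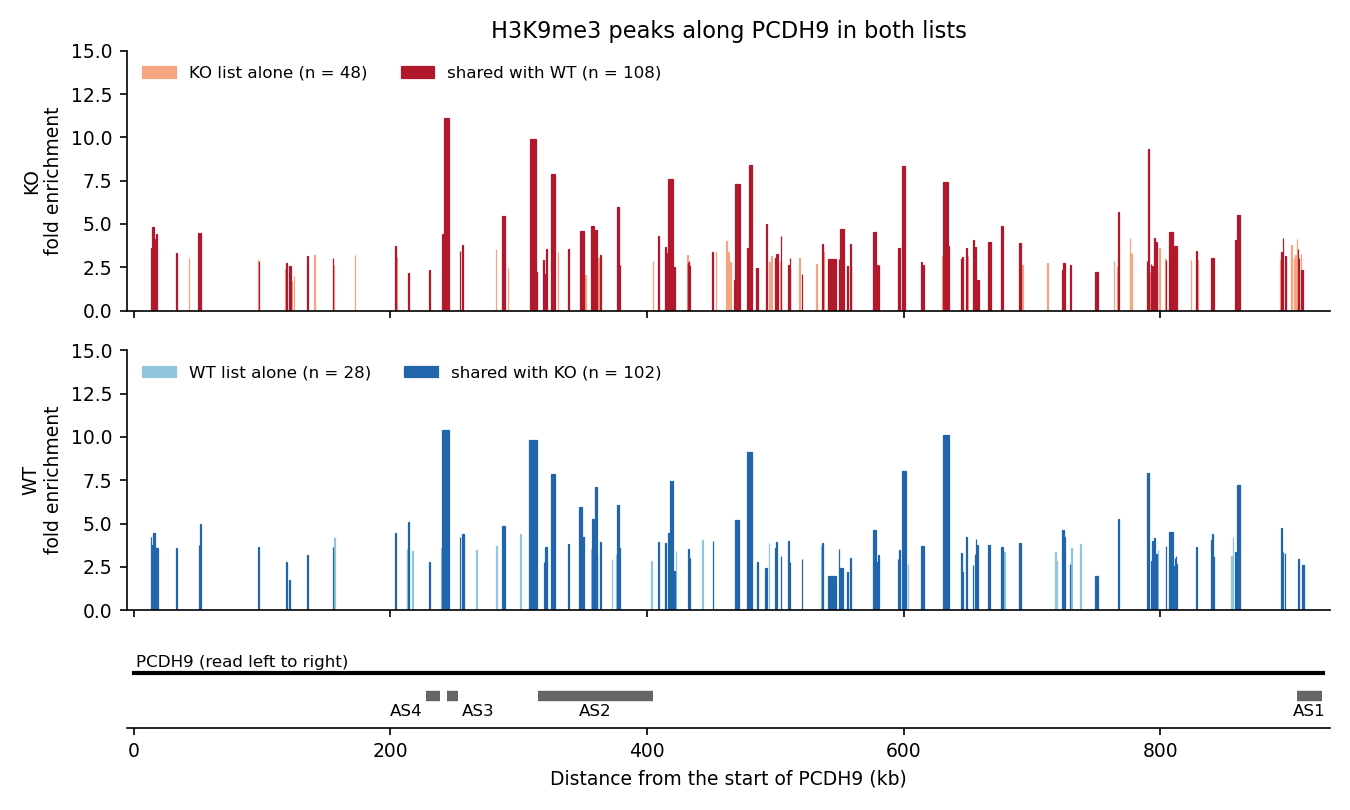
Peaks along PCDH9 by distance from the gene start (kb), each a bar as high as the authors' fold enrichment, with a thin outline that makes narrow peaks visible and slightly wider than to scale; KO above, WT below, dark for peaks that meet a peak of the other list and light for peaks of 1 list. The bottom row gives the gene and its antisense genes. The highest peaks stand at the same places in both lists, and the first 13.6 kb of the gene hold none.

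Most of the marked places were common to both genotypes. Of the 156 KO peaks, 108 met a WT peak by at least 1 bp (69.2%, Wilson 95% interval 61.6 to 75.9), and 48 (30.8%) met none. The share of KO peaks that met no WT peak was 49.4% over all assembled chromosomes (64598 KO and 46474 WT peaks) and 40.9% over chromosome 13. Of the 130 WT peaks, 102 met a KO peak (78.5%, 70.6 to 84.7), and 28 (21.5%) met none, against 20.1% over all chromosomes and 30.5% over chromosome 13. The PCDH9 share was thus below both backgrounds for KO peaks, and near the background of all chromosomes for WT peaks. The intervals treat neighbouring peaks as independent and cover counting error only. Counted in bases, 71.9% of the KO bases in the gene were also inside WT peaks and 80.0% of the WT bases inside KO peaks, and the 2 lists had 104076 bases in common. Over all chromosomes these shares were 48.7% and 77.3%.

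The strongest sites were shared, as strong sites were in the lists as a whole. A fold of 6 or more was found for 9 KO peaks (5.77%) and for 11 WT peaks (8.46%). On all chromosomes the shares were 2.73% in KO and 2.45% in WT, and those of chromosome 13 were 4.48% and 5.29%. They were 4.21% and 3.74% in the 1 Mb before the gene and 4.53% and 6.10% in the 1 Mb beyond it. All 9 and all 11 met a peak of the other list, as did 98.9% of KO and 99.7% of WT peaks of such a fold on all chromosomes. For 8 of the 9 KO peaks and 8 of the 11 WT peaks the partner also had a fold of at least 6. The highest KO peak, over the end of PCDH9-AS3 (66984359 to 66987640), was 3282 bp wide with a fold of 11.1, and a second KO peak of 1200 bp (66988023 to 66989222) followed it. In WT a single peak of 4997 bp (66984304 to 66989300) with a fold of 10.4, the highest of the WT members, spanned both. The site 311 kb from the gene start had a KO peak of 5107 bp with a fold of 9.92 and a WT peak of 6029 bp with a fold of 9.84, the widest of the WT members, which also met a KO peak of 607 bp. At 633 kb the folds were 7.44 in KO and 10.1 in WT, with widths of 3871 and 4430 bp, and the WT peak also met a KO peak of 431 bp. At 791 kb they were 9.35 in KO and 7.95 in WT, with widths of 1343 and 1986 bp. Folds of the lists may rest on different backgrounds, so a change in the mark cannot be read from a higher fold in one list.

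Width and fold did not always go together. The widest KO member (66682811 to 66688497, 5687 bp, 544 kb from the start) had a fold of only 2.98 but a q-value of 1.37e-32, and its WT partner of 5583 bp had a fold of 1.99 and a q-value of 2.20e-08. That WT fold was lower than all but 0.149% of the WT list. The median fold of all members was 3.13 in KO and 3.63 in WT, below the 3.59 and 3.77 of all chromosomes. On chromosome 13 the medians were 3.51 in KO and 3.72 in WT. They were 3.49 and 3.69 in the 1 Mb before the gene and 3.43 and 3.62 in the 1 Mb beyond it. The WT median was thus near those of the flanks. In both lists many fold values recur exactly. A value found in at least 20 peaks of its list was held by 22.4% of the KO and 21.5% of the WT members. Such a value was held by 66.4% of KO and 68.2% of WT peaks on all chromosomes, and by 53.6% and 52.6% on chromosome 13. The shares were 39.1% and 42.2% in the 1 Mb before the gene and 43.6% and 39.4% in the 1 Mb beyond it. The part of these recurring values in the median folds at PCDH9 was not tested.

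**Figure D2:**
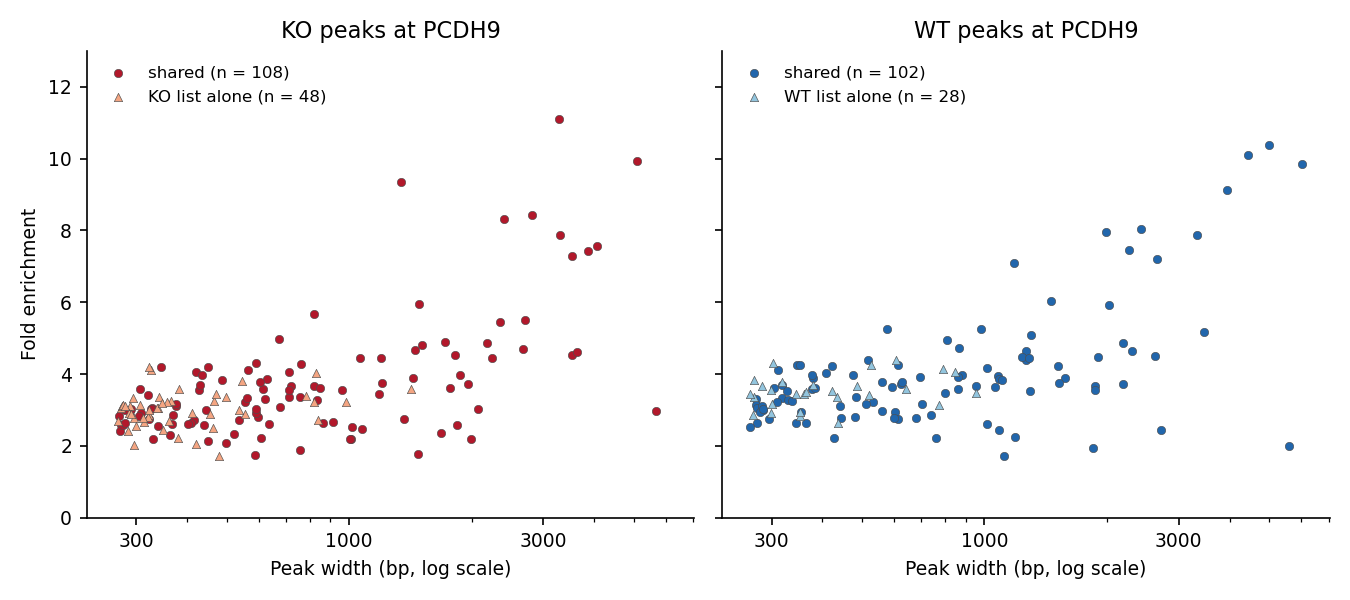
Width (bp, log scale) against fold enrichment for the KO members (left) and the WT members (right). Circles are peaks shared between the lists and triangles are peaks of 1 list, which stay at or below a fold of 4.19 in KO and 4.40 in WT.

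Wide peaks made up much of the covered sequence. Peaks of at least 2 kb numbered 17 in KO (10.9% of members) and 16 in WT (12.3%), and held 38.3% and 40.8% of the peak bases. On all chromosomes such peaks were 6.60% of the KO and 4.23% of the WT peaks, and on chromosome 13 they were 6.99% and 7.26%. In the 1 Mb before the gene they were 6.90% and 5.35%, and in the 1 Mb beyond it 8.01% and 8.45%. Member widths ran from 271 to 5687 bp in KO, with a median of 542 bp and a mean of 928 bp, and from 265 to 6029 bp in WT, with a median of 602 bp and a mean of 1000.5 bp. On chromosome 13 KO peaks averaged 799 bp and WT peaks 812 bp, with medians of 504 and 502 bp, and over all chromosomes the means were 810.2 and 709 bp.

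The peaks of 1 list were narrower and weaker than shared ones, in PCDH9 and in the lists as a whole. The KO-only members had a median width of 345 bp and a median fold of 3.05, as against 694.5 bp and 3.35 for the shared KO members. The WT-only members had medians of 362 bp and 3.49, as against 719.5 bp and 3.68 for the shared WT members. Over all chromosomes the medians were 401 bp and 3.43 for KO-only and 809 bp and 3.90 for shared KO peaks, and 349 bp and 3.61 for WT-only and 551 bp and 3.85 for shared WT peaks. In PCDH9 KO-only peaks held 20812 bases and WT-only peaks 12474. The widest KO-only peak (66429749 to 66431169) had 1421 bp and a fold of 3.59, and the next were 983 bp (66323742 to 66324724, fold 3.22) and 838 bp (66517334 to 66518171, fold 2.72). The widest WT-only peaks had 954 bp (66962282 to 66963235, fold 3.48), 846 bp (66785899 to 66786744, fold 4.07) and 792 bp (67072544 to 67073335, fold 4.14). Many of them lay beside a peak of the other list. Of the 48 KO-only peaks 25 were no more than 1 kb from a WT peak, of the 28 WT-only peaks 17 were no more than 1 kb from a KO peak, and 1 KO-only peak and 0 WT-only peaks were more than 10 kb away. Over all chromosomes 26.4% of KO-only and 41.9% of WT-only peaks lay so close to the other list, but in the flanks of PCDH9 the shares were 39.0% and 50.0% for KO-only peaks and 64.1% and 60.5% for WT-only peaks, so nothing about the gene is read from the closeness.

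Where a single KO peak met a single WT peak, neither genotype had the wider peak more often. There were 60 such pairs in PCDH9, and the KO peak was the wider in 30 and the WT peak in 30. Among 21839 such pairs on all chromosomes the KO peak was the wider in 69.6%, and among 1718 pairs on chromosome 13 in 54.4%. The median ratio of KO to WT width was 0.999 in PCDH9, with the middle 50% of pairs between 0.871 and 1.37, and was 1.22 on all chromosomes. In the 1 Mb before the gene start and the 1 Mb beyond its end the KO peak was the wider in 69.7% of 89 pairs and 67.3% of 107 pairs. The other shared members met more than 1 peak or met a peak that did so. Among the members, 12 KO peaks met 2 or more WT peaks and 19 WT peaks met 2 or more KO peaks. The shares of such peaks over all chromosomes are not given here, so nothing about the gene is read from these counts.

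**Figure D3:**
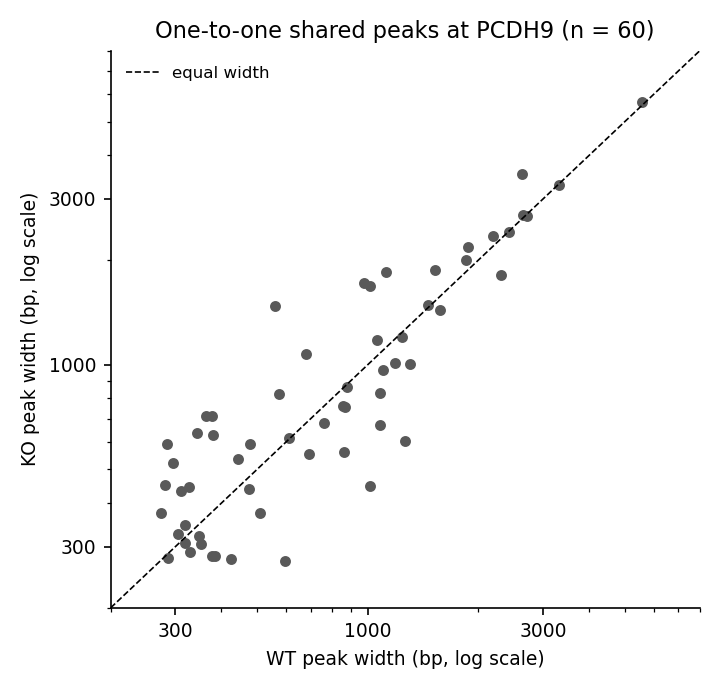
Widths of the 60 pairs in which 1 KO peak met 1 WT peak in PCDH9, with the KO width on the vertical and the WT width on the horizontal axis (bp, log scales). The points lie evenly about the dashed line of equal width, 30 above and 30 below it.

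Along the gene the peaks were unevenly spread, with the least near its start. In the first 100 kb 7846 bases were covered in KO and 7020 in WT, and in the next 100 kb 5568 and 3251. Low coverage was not limited to the gene. From -200 to -100 kb, before the start, 8629 bases were covered in KO and 3963 in WT. In the 100 kb just before the start it was 17605 and 8635. Between 300 and 400 kb from the start, where the inner start and PCDH9-AS2 lie, the bases reached 22349 in KO and 22725 in WT. Of the 9 full stretches of 100 kb, 7 had more KO bases and 2 had fewer. Those with fewer ran from 200 to 400 kb, and the first of them had 11498 bases in KO and 14667 in WT. From 400 to 700 kb coverage stayed between 19467 and 22471 bases per 100 kb in KO and between 17235 and 20192 in WT. The longest stretch without a peak in either list was 44.2 kb, from 52.5 to 96.6 kb inside the gene, and the next was the one of 31.8 kb around the gene start. At the borders of the body, the first peaks inside and outside the start had folds of 3.59 and 2.91 in KO and 4.24 and 3.18 in WT. At the gene end, the last peaks inside had folds of 2.37 in KO and 2.61 in WT, and those just outside, 211 bp (KO) and 266 bp (WT) from the border, had folds of 3.76 and 4.17.

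The dense marking was not limited to the transcribed part, and the flanks held more of the KO excess. PCDH9 had 168 KO and 140.2 WT peaks per Mb. The 1 Mb before its start had 261 KO and 187 WT peaks, and the 1 Mb beyond its end had 287 and 213. Covered bases were 21.0% in KO and 14.8% in WT before the gene and 25.5% and 18.7% beyond it. The ratio of KO to WT bases was 1.43 before and 1.37 beyond the gene, against 1.11 within it. The share of KO peaks that met no WT peak was 47.1% (41.2 to 53.2) before and 43.2% (37.6 to 49.0) beyond the gene, against 30.8% (24.1 to 38.4) within it. For WT peaks it was 20.9% and 17.8% in the flanks and 21.5% in the gene. The KO excess varied between stretches of 100 kb on both sides of the gene's borders. From 100 to 200 kb inside the gene 5568 KO and 3251 WT bases were covered, and from -500 to -400 kb 22217 and 22557. The cuts that reversed the sign in PCDH9 were not run on the flanks. Whether the difference between gene and flanks would recur between cultures cannot be judged from 1 list per genotype.

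**Figure D4:**
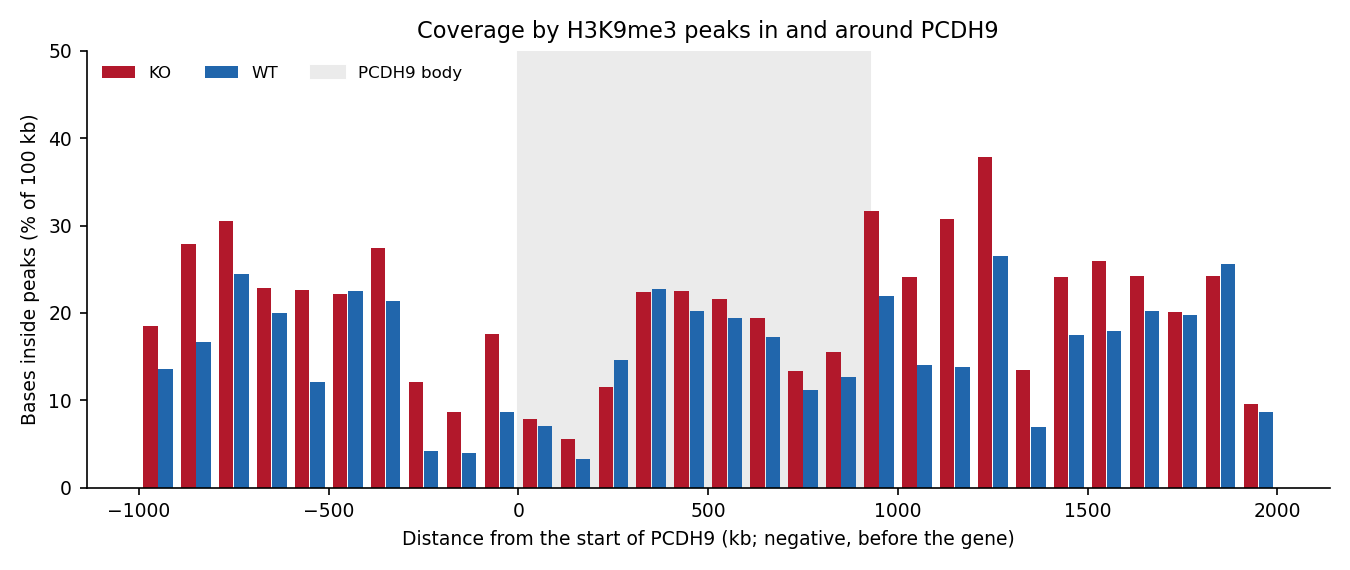
Bases inside peaks, as a percent of each stretch of 100 kb, by distance from the start of PCDH9 (kb), KO left and WT right in each pair of bars, with the gene body shaded. The bars of both lists are low in the first 200 kb of the gene. They are also low from -300 to -100 kb, before the gene, at 12.1% and 8.63% in KO and 4.26% and 3.96% in WT. In the 100 kb just before the gene they stand at 17.6% in KO and 8.6% in WT. The WT bars are the higher from 200 to 400 kb, and the KO bars stand above the WT bars in most stretches of the flanks.

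The authors' gene column gave a minority of the members to antisense noncoding genes. PCDH9-AS1, at the far end of the gene, had 6 KO and 2 WT members. Of the KO peaks there, 3 met no WT peak, with widths of 366, 326 and 983 bp. Over all chromosomes 49.4% of KO peaks met none. PCDH9-AS2 had 9 and 10 members, and a KO peak of 3625 bp (66878708 to 66882332, fold 4.62) near the start of one of its transcripts stood where WT had peaks of 1512 and 2018 bp with folds of 4.24 and 5.93. A KO peak of 292 bp (66824892 to 66825183, fold 2.89) at another start of PCDH9-AS2 met no WT peak, and a WT peak of 270 bp nearby (66826122 to 66826391, fold 2.86) met no KO peak. PCDH9-AS3 had 2 KO and 1 WT members and PCDH9-AS4 2 of each, and the small nuclear RNA pseudogene RNU7-87P had 1 of each, a KO peak of 1770 bp and a WT peak of 800 bp. A ChIP peak has no strand, so peaks in these genes cannot be told apart from peaks of PCDH9.

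Among 315 protein-coding genes of at least 500 kb, PCDH9 had the most peaks, the most peaks per Mb and the highest covered share in both lists, which is what it was chosen for. The median of these genes was 12 KO and 8.93 WT peaks per Mb, and 0.807% and 0.513% of their bases were covered. In the share of peaks in common PCDH9 was ordinary. Among the 49 such genes with at least 20 peaks in each list it was 16th for KO peaks (69.2%, median 64.6%) and 34th for WT peaks (78.5%, median 82.6%), and its ratio of KO to WT bases, 1.11, was 39th (median 1.35, range 0.625 to 2.83).

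The genes most like PCDH9 over peaks per Mb and shared shares in both lists, 4 values per gene, were SLC44A5, CCDC178, GPC5, DOCK3 and GPC6. SLC44A5, a gene of the choline transporter-like family on chromosome 1, was nearest with 84.3 KO and 82.4 WT peaks per Mb. CCDC178, a coiled-coil gene on chromosome 18, had 95.3 and 81.4. GPC5 and GPC6 encode glypicans, cell surface proteoglycans, and lie on chromosome 13 as well. GPC5 had 66.7 and 76.3 peaks per Mb and GPC6 67.1 and 50.4. DOCK3, a guanine nucleotide exchange factor gene on chromosome 3, had 79.0 and 56.4. Each of the 5 had fewer peaks per Mb than PCDH9 in both lists, which follows from the choice of PCDH9 for its peaks.

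**Figure D5:**
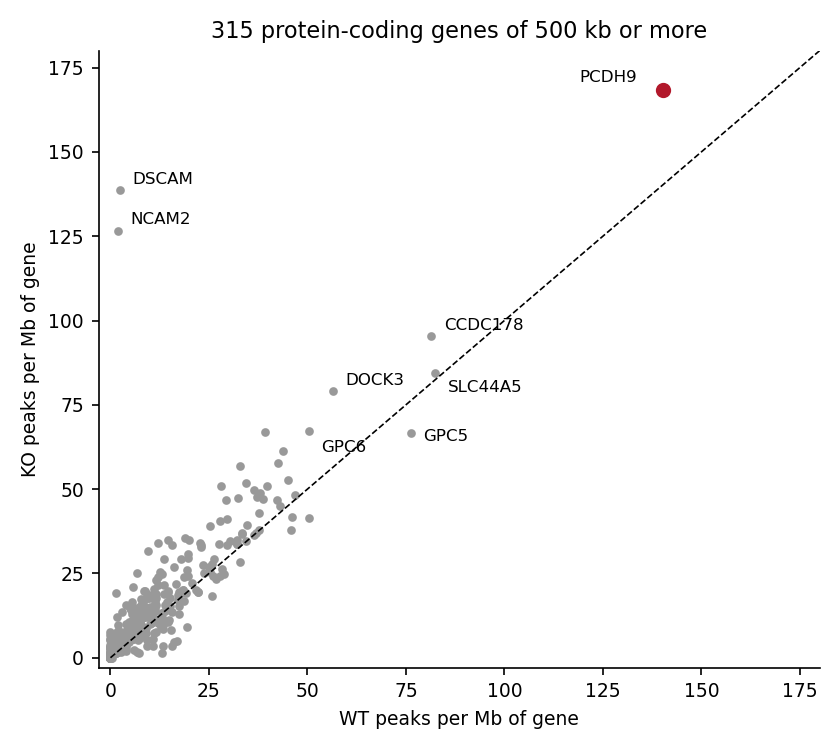
KO peaks per Mb against WT peaks per Mb for the 315 protein-coding genes of at least 500 kb, with the line of equal values dashed. PCDH9 is the point at 168 KO and 140.2 WT peaks per Mb, and DSCAM and NCAM2 are high in KO alone.

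Other adhesion genes of neurons were mostly sparsely marked. Of 32 such genes, 30 had a KO peak and 26 a WT peak in the body. Covered bases were more in KO for 23 and fewer for 7, and the median was 6.98 KO and 4.29 WT peaks per Mb. Among the 315 protein-coding genes of at least 500 kb, 297 had a KO peak and 281 a WT peak. Of the 298 with a peak, 87.6% had more covered bases in KO, so the counts of adhesion genes are descriptions only. None of the 32 reached the peaks per Mb of PCDH9 in either list, but PCDH9 was chosen for its many peaks, so nothing is read from this. DSCAM and NCAM2, immunoglobulin-type adhesion genes on chromosome 21, came closest in KO with 139 and 127 peaks per Mb, but had 2.39 and 1.84 in WT. GPC6 followed in KO. In WT the highest were GPC5, GPC6 and CNTNAP2, the last with 34.7 KO and 30.4 WT peaks per Mb. CNTNAP2 encodes a neurexin-related protein of nerve fibres.

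Most of the other non-clustered protocadherin genes held no peak, but many of them are short. Of the 12 other non-clustered protocadherin genes examined, 3 had a peak in KO and 2 in WT, and 9 had none in either list. Of these 9, 1 lies on chromosome Y, and whether these cells carry it was not checked, so its lack of peaks says nothing of the mark. PCDH15, whose product forms part of the tip link of hair cells, had 28 KO and 20 WT peaks over its 1825 kb. Of these, 14 KO and 5 WT peaks were in 1 list only, as were 49.4% of KO and 20.1% of WT peaks over all chromosomes. PCDH15 had 1.89 times as many covered bases in KO as in WT. PCDH11X on chromosome X had 6 KO and 7 WT peaks, and PCDH10 had 1 KO peak and 0 WT peaks. PCDH8, PCDH17 and PCDH20 are on chromosome 13 like PCDH9 and were among the genes without a peak. They are much shorter than PCDH9, with 5.75, 99.2 and 6.17 kb of body against 927 kb. Of the other autosomal or X genes without a peak, PCDH7 has 426 kb and PCDH19 119 kb. PCDH1, PCDH12 and PCDH18 have 25.3, 14.6 and 13.6 kb. The share of genes of like length that hold a peak is not given here, so the counts of protocadherin genes are descriptions only. The nearest protein-coding genes of the annotation are 2.47 Mb away on either side. KLHL1, a kelch-like gene known from neurons, had 20 KO and 22 WT peaks over 408 kb, or 49.0 and 53.9 per Mb, with 5 peaks of each list unshared. LOC647264 on the other side, only 693 bp long, had none.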

How the data were processed

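H3K9me3 ChIP-seq of 293T cells was listed in the labels with 3 ChIP and 3 input libraries per genotype. HISAT2 and hg38 are named in the submitters' processing notes. For the peak caller, its settings and the pooling of replicates, nothing is given in the sources used here. The authors deposited 1 peak list per genotype, with a fold enrichment (a ratio) and a q-value per peak. The body of PCDH9 came from the deposited annotation, and other gene bodies, biotypes and promoter sequences from RefSeq (GRCh38.p14). No reference genome and no exon positions were used here. Positions were taken as counted from 1, which the headers do not state.

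Overlaps, widths, windows of 100 kb and flanks of 1 Mb were computed with Python 3.11.15 and pandas 2.3.3, with Wilson 95% intervals from scipy 1.17.1. Interval functions were tested on simulated data. Peaks of other genes were those overlapping the RefSeq body. Likeness was a Euclidean distance over 4 values (log2 peaks per Mb and percent shared, KO and WT), each divided by its SD over 49 genes. Genes named were PCDH9, its neighbours, its 5 likest genes, protocadherins with a peak and the 3 densest adhesion genes per list. Peaks named were the widest, the highest in fold and those near annotated starts. The gene, lists and rules were chosen with earlier results of these data known, and peaks of fold 6 or more, recurring folds and peaks of 2 kb or more were described after values were seen.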

Additional observations from a re-analysis of the deposited data

How the results depend on the processing

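The 7 summary values of PCDH9 were recomputed under 9 other settings, and of 57 recomputed values 21 stayed close. Assignment by body overlap alone changed nothing, and by the gene column alone the KO minus WT bases fell to 6654, with 136 KO and 114 WT peaks. With at least 50% of both peaks in overlap, 90 KO and 64 WT peaks were unshared, and 42.3% and 50.8% were shared. By that rule 29.1% of KO and 40.5% of WT peaks were shared over all chromosomes, and 35.4% and 41.1% over chromosome 13. For the settings that follow, such shares are not given here, so their unshared counts describe PCDH9 alone. Within 1 kb, 23 KO and 11 WT peaks were unshared, and 85.3% and 91.5% were shared. With only peaks of at least the pooled median fold, 3.69, there were 45 KO and 59 WT peaks, 16 KO peaks were unshared, 52.5% of WT peaks were shared, and KO minus WT was -6982 bases. At or below the median q, 1.71e-07, there were 77 KO and 63 WT peaks, with 25 and 14 unshared. With a KO list as long as the WT list, there were 92 KO peaks, 20 KO and 51 WT peaks were unshared, 78.3% and 60.8% were shared, and KO minus WT was -13232 bases. Merging peaks no more than 1 kb apart left 89 KO and 80 WT regions, 21 and 12 of them unshared, with 76.4% and 85.0% shared. Among peaks of at least 500 bp there were 81 KO and 75 WT peaks, 18 and 16 of them unshared, 77.8% of KO peaks were shared, and KO minus WT was 7149 bases. Fewer peaks follow from a stricter cut by construction; the cause of the reversed sign in bases was not tested. No paired analysis was possible because each genotype has 1 list without library columns, and leaving out a replicate could not be run for the same reason. Depth per library is unknown, so a peak of 1 list need not be unmarked in the other genotype.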

Other observations

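PCDH9 sits in a longer stretch of chromosome 13 that is rich in peaks in both genotypes, seen in windows of 0.5 Mb that were set after the values were seen. It is the unbroken run of windows with at least 40 peaks in each list that holds the gene start. From 61.5 to 68.5 Mb each of 14 windows held between 85 and 147 KO peaks and between 48 and 107 WT peaks. The stretch held 1471 KO and 1199 WT peaks, or 33.1% and 31.4% of the peaks of chromosome 13, and peaks covered 17.5% of it in KO and 15.2% in WT. In the RefSeq annotation 3 protein-coding genes overlap it, PCDH9, LOC647264 and LOC112267897. Both borders were abrupt. The window from 61 to 61.5 Mb, which holds PCDH20, had 2 KO and 3 WT peaks and the next one 106 and 80, and the window from 68.5 to 69 Mb had 31 and 28 after one with 105 and 86. The window with the fewest WT peaks in the stretch, 67 to 67.5 Mb with 85 KO and 48 WT peaks, is the one that holds the start of PCDH9.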
